A study of Mus musculus with 9 samples.

Results

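Plasmacytoid dendritic cells (pDCs) were taken out of a CITE-seq experiment on mouse spleen, in which the transcripts and the antibody tags of the same cells were counted. They were chosen by a gate on raw UMIs, the molecular tags that each mark 1 captured molecule. A cell had at least 2 Siglech UMIs, at least 2 Bst2 UMIs, at most 1 Cd79a UMI and no UMI of Cd3d, Cd3e or Cd3g. The gate held 151 of the 45217 cells that passed the filters and were assigned to a hashtag. Because the members were selected on Siglech and Bst2, the levels of these genes are a description and were not tested.

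Mice were homozygous (R594C/R594C), heterozygous (R594C/+) or wild type (WT) for R594C in IRE1, which Ern1 encodes and which senses stress in the endoplasmic reticulum (ER). Total splenocytes were sorted with the viability dye DAPI and loaded as 1 droplet capture per genotype. Hashtags, antibodies whose DNA barcodes mark the sample a cell came from, gave 2 replicates in R594C/R594C, 4 in R594C/+ and 4 in WT. No source used here gives age, sex or strain, or says that replicates were separate animals. The p-values therefore reflect the spread between these samples alone, which may be technical. An effect of genotype cannot be told apart from one of capture or staining. The study asked whether the R594C change alters the immune cells of the spleen.

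pDCs are the dendritic cells specialised for type I interferon secretion. They sense RNA and DNA in endosomes through TLR7 and TLR9, and the transcription factor E2-2, encoded by Tcf4, sets and keeps their identity. Their cytoplasm holds extensive rough ER, as in plasma cells. When IRE1 is active, its RNase domain cuts Xbp1 mRNA and the rejoined transcript encodes XBP1s, a transcription factor for genes of ER folding and transport. Dendritic cells, pDCs among them, have been described as reduced in chimeric mice whose lymphoid cells lack XBP1.

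The DNA barcodes that carried the measurement are given first, since every assignment to a replicate and every surface level rests on reading them. The hashtags were read from 4 oligonucleotides of 15 bases, any pair of which differed at 11 to 13 positions. The capitals mark the whole barcode.
Hashtag of replicate 1: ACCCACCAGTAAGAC
Hashtag of replicate 2: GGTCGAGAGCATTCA
Hashtag of replicate 3: CTTGCCGCATGTCAT
Hashtag of replicate 4: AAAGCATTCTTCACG
The antibody barcodes that the surface results turn on are shown in the same way. CD317 is the protein of Bst2, and the target of the tag labelled Siglec is named no further in the panel.
CD317: TGTGGTAGCCCTTGT
Siglec: CCGCACCTACATTAG
CD301a: TGTATTTACTCACCG
CD371: GCGAGAAATCTGCAT
Ly6C: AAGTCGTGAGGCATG
CD11c: GTTATGGACGCTTGC
CD4: AACAAGACCCTTGAG
CD45R_B220: CCTACACCTCATAAT

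The depth behind a pDC was above that of the average cell. pDCs had a median of 6742 RNA UMIs, 2507 genes and 1.40% mitochondrial UMIs, against 3269 UMIs, 1399 genes and 1.93% over all cells. Summed over the pDCs of a replicate, the RNA UMIs ranged between 37599 and 200583. Of 17444 barcodes 15686 were kept in R594C/R594C, of 17980 barcodes 15712 in R594C/+, and of 16027 barcodes 13819 in WT. Between 68 and 89 cell barcodes were shared between any pair of captures, and 1 pDC barcode of R594C/R594C was also found in R594C/+. A doublet caller marked 3.62% of R594C/R594C, 2.04% of R594C/+ and 2.14% of WT cells, and none of the 151 pDCs. The gate was also met by 1 barcode in R594C/R594C, 0 in R594C/+ and 3 in WT that had no clear hashtag and were left out.

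The gate picked cells with many Siglech and Bst2 molecules. Siglech, the pDC lectin receptor Siglec-H, had a median of 13 UMIs per pDC (range 2 to 34), and Bst2, which encodes the antiviral tetherin, had a median of 30 (range 2 to 56). Summed per replicate, Siglech stood at 2292 and 1830 counts scaled to equal UMI totals (CPM) in R594C/R594C pDCs, at 2224, 2351, 1730 and 1838 CPM in R594C/+ pDCs and at 1614, 1912, 1356 and 2411 CPM in WT pDCs. The genotypes overlapped. The cells just inside the threshold were unlike the typical member. The 13 pDCs with 2 or 3 Siglech UMIs had medians of 8 Tcf4, 6 Irf8, 0 Ly6d and 0 Ccr9 UMIs, against 14 Tcf4, 25 Irf8, 18 Ly6d and 5 Ccr9 UMIs over all members. Just outside, the 10 cells with 1 Siglech UMI had medians of 3.5 Tcf4 and 2 Irf8 UMIs, with 62 H2-Aa and 114 Cd74 UMIs. Another 22 cells met the gate except that they held Cd3 UMIs, and their medians were 15 Siglech, 30 Bst2 and 25 Irf8 UMIs. A further 11 cells were left out by 2 or more Cd79a UMIs, and 3 by fewer than 2 Bst2 UMIs.

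Markers outside the gate were read in most of the cells, as the label implies. Tcf4 was read in 99.3% of the 151 pDCs (exact binomial 95% interval from 96.4% up), with a median of 14 UMIs. Follicular B cells, gated on Cd79a, Fcer2a and Ighd, served as a class that should lack most pDC genes, at a median of 2884 UMIs per cell. There Tcf4, a factor that B cells are also known to express, was read in 49.3% of cells. Runx2, a factor of pDC exit from bone marrow, was read in 99.3% of pDCs and 0.571% of follicular B cells. Spib, an ETS factor of pDCs and B cells, was read in 81.5% of pDCs and 35.3% of follicular B cells. Irf8, a factor of pDCs and of type 1 conventional dendritic cells (cDC1), was read in 97.4% of pDCs and 59.4% of follicular B cells.

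Surface and secreted genes separated the classes more sharply. Ccr9, a homing receptor for the gut and thymus, was read in 90.1% of pDCs and 0.474% of follicular B cells. Klk1, a kallikrein protease, was read in 72.2% of pDCs and 0.0431% of follicular B cells. Cox6a2, a subunit of cytochrome c oxidase best known in muscle, was read in 82.8% of pDCs and 0.129% of follicular B cells. Ly6d, a surface protein of B lineage progenitors and pDCs, was read in 92.1% of pDCs and also in 93.2% of follicular B cells. The pDC shares of Ccr9, Klk1 and Cox6a2 lay far above the shares in follicular B cells. Binomial intervals and floors given here cover counting error only.

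Summed markers that define other classes were low or at 0 in pDCs, except those of cDC2. The sums leave out Irf8, also a cDC1 marker, and Ly6c2, also a monocyte marker. These genes were read in 97.4% and 92.7% of pDCs. Of the 5 T cell markers 3 were at 0 because the gate required it, and their sum was 0 to 26.6 CPM over the 10 replicates. The 4 natural killer markers summed to 0 to 10.7 CPM, with Ncr1 at 0. The 4 cDC1 markers summed to 150 to 319 CPM with Xcr1 at 0, and the 4 cDC2 markers to 283 to 717 CPM with Clec4a4 at 0. In cDC2 themselves the cDC2 markers summed to 613 to 1630 CPM, which pDCs overlapped, and in cDC1 to 0 to 264 CPM. Among the cDC2 markers, Cd209a was read in 41.1% of pDCs. The 5 plasma cell markers summed to 153 to 424 CPM with Tnfrsf17 at 0, and the 6 B cell markers to 21.8 to 146 CPM. The 7 monocyte and macrophage markers summed to 102 to 765 CPM, with all 7 detected and the highest sums, 436 and 765 CPM, in WT replicates 1 and 2.

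The promoters of a gate gene and of a pDC factor are shown because E2-2 belongs to the proteins that bind E-boxes, written CANNTG. The sequences are the 250 bases upstream of the RefSeq start (GRCm38.p6), 5′ to 3′ on the gene's strand, and the capitals mark every CANNTG.
Siglech, chr7:55767934-55768183, plus strand: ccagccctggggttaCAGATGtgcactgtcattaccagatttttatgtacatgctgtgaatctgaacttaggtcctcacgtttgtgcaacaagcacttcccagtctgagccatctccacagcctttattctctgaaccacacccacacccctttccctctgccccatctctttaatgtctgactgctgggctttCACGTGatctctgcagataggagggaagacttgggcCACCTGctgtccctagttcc
Spib, chr7:44532072-44532321, minus strand: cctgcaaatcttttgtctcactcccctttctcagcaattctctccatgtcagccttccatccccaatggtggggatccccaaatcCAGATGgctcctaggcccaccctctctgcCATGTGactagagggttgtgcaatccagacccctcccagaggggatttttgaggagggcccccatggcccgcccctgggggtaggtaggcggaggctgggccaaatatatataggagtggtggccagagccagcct
Siglech held 3 E-boxes, which began 235, 56 and 20 bases before the start. Spib held 2, which began 165 and 136 bases before it. Promoters were matched for 11 of the 14 pDC markers, and 9 of the 11 held a CANNTG on either strand, which is also held by 66% of all 27025 promoters of this length (17848). The form CAGCTG was held by 0 of the 11 and 12.8% of all, and CACCTG on either strand by 4 of the 11 (Siglech, Bst2, Ccr9 and Klk1) and 17.1% of all. The ETS letters TTCCTC on either strand were held by 1 of the 11 (Cd209d) and 23.1% of all. These are matches of letters, not measured binding.

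**Figure D1:**
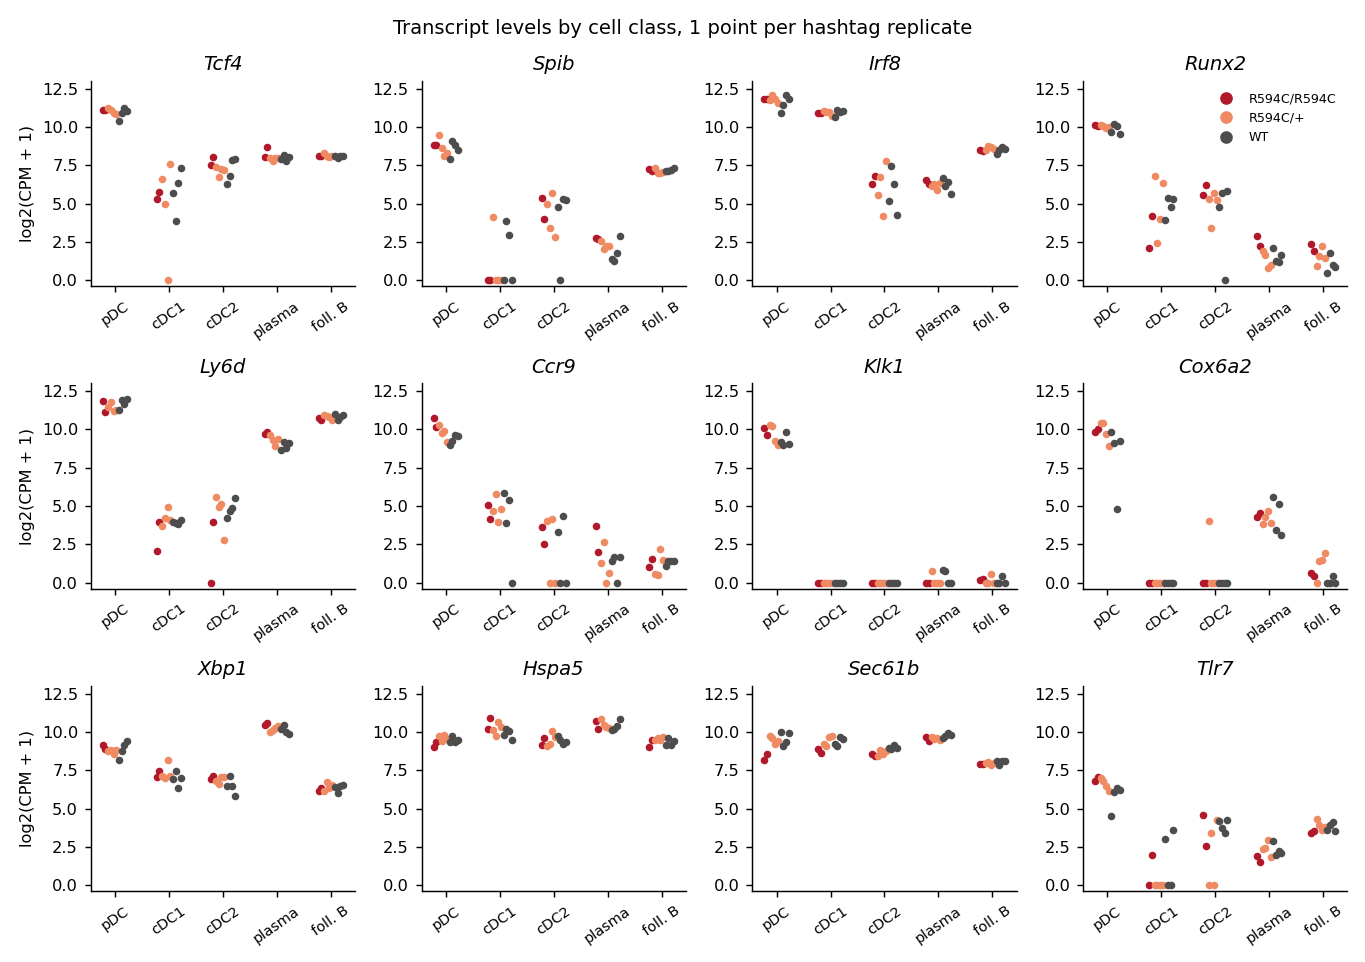
Transcript levels of 12 genes in pDCs, cDC1, cDC2, plasma cells and follicular B cells, as log2(CPM + 1) on the vertical axis with 1 point per hashtag replicate, coloured by genotype. Tcf4, Runx2, Ccr9 and Klk1 were highest in pDCs in every replicate, whereas Xbp1 lay between the conventional dendritic cells and the plasma cells.

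The share of pDCs among spleen cells was low in every genotype and highest on average in R594C/+. It was 0.199% (15 of 7544 cells) and 0.368% (30 of 8142) in R594C/R594C. In R594C/+ it was 0.433% (14 of 3231), 1.01% (33 of 3267), 0.277% (13 of 4691) and 0.442% (20 of 4523). In WT it was 0.196% (6 of 3066), 0.168% (7 of 4171), 0.149% (5 of 3364) and 0.249% (8 of 3218). All 4 R594C/+ replicates lay above all 4 WT replicates, the second R594C/+ replicate stood well above the rest, and R594C/R594C overlapped both other genotypes.

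The mean share was 0.284% ± 0.12 (SD, n = 2) in R594C/R594C, 0.541% ± 0.322 (SD, n = 4) in R594C/+ and 0.190% ± 0.0435 (SD, n = 4) in WT. R594C/+ exceeded WT by 0.350 percentage points, with a two-sided exact permutation p of 0.0286, the smallest that 70 assignments allow, and 0.114 after Benjamini-Hochberg adjustment over the 4 share comparisons. Without the second R594C/+ replicate the difference was 0.194 points. R594C/R594C exceeded WT by 0.0935 points (exact permutation p = 0.2, adjusted 0.4, where 15 assignments allow no p under 0.0667) and lay 0.257 points below R594C/+ (exact p = 0.4, adjusted 0.478). Over the 10 replicates the share had a correlation of 0.278 with the number of R594C alleles (Pearson, two-sided exact permutation p = 0.478). None of the 4 comparisons passed the threshold of 0.05 after adjustment.

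Counting error was of the same order as the differences. The exact binomial 95% intervals were 0.111% to 0.328% and 0.249% to 0.526% in R594C/R594C, reached from 0.148% to 1.42% over the R594C/+ replicates and from 0.0483% to 0.489% over the WT replicates. Sex moved with genotype in these replicates. Xist, the RNA of the inactive X chromosome, was expressed in all 4 R594C/+ replicates, in the second R594C/R594C replicate and in the second WT replicate. Among the replicates that expressed Xist the share was 0.368% in R594C/R594C, 0.277% to 1.01% in R594C/+ and 0.168% in WT. Among those that did not, it was 0.199% in R594C/R594C and 0.149% to 0.249% in WT. The part of sex in the difference was not tested. The share of a cell type in a suspension also depends on how many other cells were recovered: among cells with at most 1 Cd79a UMI, pDCs made up 0.699% in R594C/R594C, 1.29% in R594C/+ and 0.458% in WT.

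**Figure D2:**
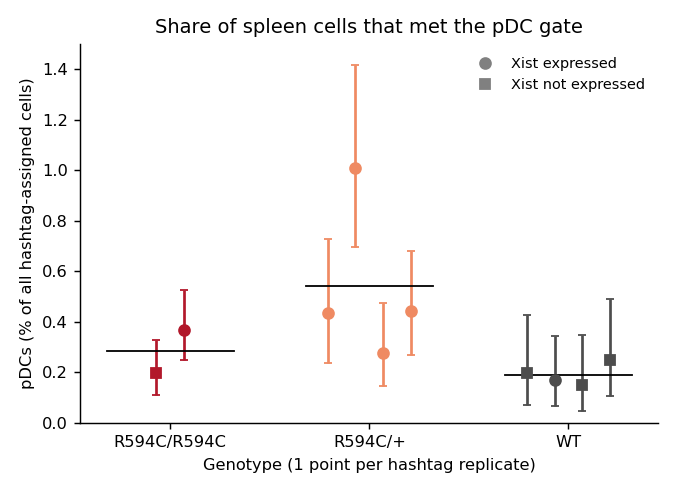
Share of spleen cells that met the pDC gate, in percent of the hashtag-assigned cells of a replicate, by genotype. Points are replicates with exact binomial 95% intervals, lines are genotype means, and squares mark replicates without Xist expression. The R594C/+ replicates sit between 0.277% and 1.01%, above the WT replicates at 0.149% to 0.249%.

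At the surface, pDCs stood apart from the mean of all other spleen cells by CD317, CD301a, CD371, Ly6C, CD11c and Ly6A/Ly6E. They carried few B cell proteins. By median tag UMIs, CD371 and CD11c were not higher on pDCs than on cDC1. Tag UMIs were summed over the pDCs and over all other cells of each of the 10 replicates, and edgeR's quasi-likelihood test with each replicate as a block called 35 of 172 tags higher in pDCs (20.3% of those tested) and 40 lower (23.3%). That split was 20 higher and 66 lower with a gate of 3 UMIs each, and 20 and 68 without the filter on low tags. CD317 is the product of a gate gene, so its level is a description. It was 40.1 and 41.1 UMIs per pDC in R594C/R594C, 44.0, 36.7, 38.7 and 40.0 in R594C/+ and 27.5, 34.9, 39.0 and 40.6 in WT, a mean of 38.3 ± 4.52 (SD, n = 10) against 0.257 ± 0.0709 per other cell. Every replicate's pDCs were more than 10 UMIs above its other cells.

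CD301a, a C-type lectin for galactose-type sugars whose gene Clec10a is among the cDC2 markers, was the next in size. Its level was 3.07 and 10.2 UMIs per pDC in R594C/R594C, 10.1, 9.12, 9.85 and 11.1 in R594C/+ and 4.83, 4.14, 7.80 and 10.6 in WT. The mean of 8.08 ± 2.97 compared with 0.241 ± 0.0788 per other cell (SD, n = 10 each; log2 difference 5.30, SE 0.25, adjusted p = 1.4e-43 by edgeR, higher in 10 of 10 replicates). The genotypes overlapped, and the first R594C/R594C replicate was lowest. The tag labelled Siglec had 1.02 ± 0.482 UMIs per pDC and 0.101 per other cell, which may not be independent of the gate. CD371, an inhibitory lectin encoded by Clec12a, averaged 8.79 UMIs per pDC and 1.03 per other cell (log2 difference 3.36). Its median was 8 UMIs on pDCs and 9 on cDC1. Ly6C, a GPI-anchored protein of pDCs and monocytes, averaged 17.4 UMIs per pDC and 3.69 per other cell (2.42). CD11c, an integrin of dendritic cells, averaged 7.34 ± 1.52 UMIs per pDC and 1.85 ± 0.544 per other cell (2.25), and at a median of 5 per pDC was below the median of 58 on cDC1. Ly6A/Ly6E, a tag for Sca-1 and a related protein, averaged 43.4 UMIs per pDC and 11.7 per other cell (2.10). Each of these 4 was higher in pDCs in 10 of 10 replicates, with edgeR adjusted p under 0.05.

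CD4 and CD8a, T cell coreceptors that subsets of mouse dendritic cells also carry, varied among pDCs. CD4 had 27.0 and 30.2 UMIs per pDC in R594C/R594C, 22.3, 40.0, 10.9 and 28.9 in R594C/+ and 14.7, 14.1, 33.6 and 66.9 in WT, against 9.76 to 12.7 per other cell. It was higher in pDCs in 9 of 10 replicates (log2 difference 1.48, SE 0.21, edgeR adjusted p = 2.6e-11), and Cd4 transcripts were read in 51.0% of pDCs, 0.237% of follicular B cells and 1.32% of cDC1. Within the 151 pDCs the CD4 tag had a median of 12, quartiles of 2 and 44.5 and a maximum of 208 UMIs. CD8a averaged 5.56 ± 3.01 UMIs per pDC and 2.97 ± 0.831 per other cell (SD, n = 10 each; log2 difference 1.05, edgeR adjusted p = 0.00181, higher in 8 of 10). The CD8a call was lost without the second WT replicate (log2 difference 1.00), with the 3-UMI gate (0.53) and without the filter on low tags (0.42).

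CD45R/B220, the CD45 form of B cells and pDCs, was lower on pDCs than on the B-cell-rich remainder, at 1.38 ± 0.613 UMIs per pDC against 2.56 ± 0.295 per other cell (SD, n = 10 each; log2 difference -0.59, edgeR adjusted p = 0.019, lower in 10 of 10). This call was lost without the first or the third WT replicate and without the block (log2 differences of -0.49, -0.45 and -0.43). MHC class II (IA/IE) averaged 13.3 ± 5.11 UMIs per pDC against 45.5 ± 5.61 per other cell (log2 difference -1.62, edgeR adjusted p = 4.2e-15). The largest deficits were in CD55, a complement regulator, with 1.98 UMIs per pDC and 25.2 per other cell, and in IgD, the antigen receptor of mature B cells, with 3.17 per pDC and 46.9 per other cell (log2 differences -3.72 and -3.68). The tag of the rat IgG2a isotype control was called higher too, at 0.416 UMIs per pDC and 0.294 per other cell (0.82), 1 of the 10 isotype controls, so a log2 difference of that size was also seen in a tag with no target.

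**Figure D3:**
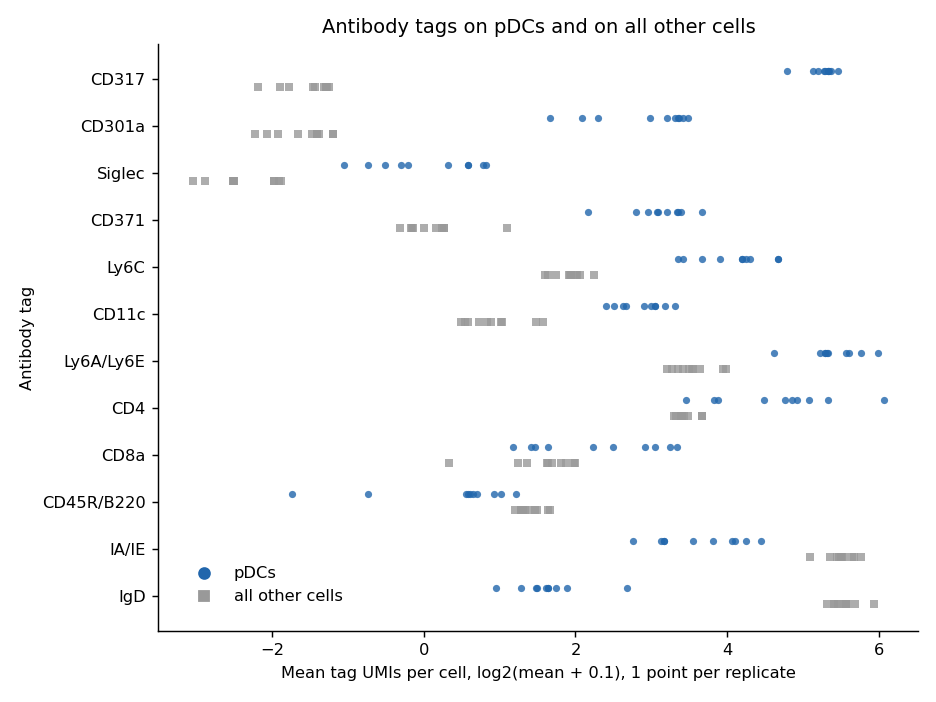
Mean UMIs per cell of 12 antibody tags on pDCs (circles) and on all other cells of the same replicate (squares), on a horizontal axis of log2(mean + 0.1) with 1 point per replicate. CD317, CD301a and CD371 do not overlap between the classes, whereas CD4 and CD8a overlap.

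Among the transcripts, pDCs were set against their nearest relatives, cDC1, gated on Xcr1 and Clec9a, and type 2 conventional dendritic cells (cDC2), gated on Clec10a, Cd209a and Clec4a4. Replicates with at least 10 cells of both classes entered, which left 5 replicates and none of WT, with 112 pDCs against 98 cDC1 or 96 cDC2. By edgeR, 719 of 3084 genes were higher in pDCs than in cDC1 (23.3%) and 707 lower (22.9%). Under scaling by library totals, which shifted the median log2 difference by 0.18, that split was 892 higher and 509 lower. Against cDC2, 533 of 2538 genes were higher (21%) and 511 lower (20.1%), and library totals shifted the median by 0.125. Both conventional classes were gated on their own genes and held to at most 1 Siglech UMI. The genes that go with a gate are not independent of it, so counts of pDC genes are a description. Differences below are edgeR log2 differences in CPM of the sums, with TMM scaling, n is 5 replicates, and UMI numbers of a class are those of these replicates unless all pDCs are named.

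Transcription factors of the pDC programme were higher in pDCs than in both conventional classes. The list counted here also takes in factors of the conventional programme, such as Id2, which are given below. Of 12 factors of the list tested against cDC1, 8 were higher and 3 lower (list median 1.23, all genes 0.00). Of 9 tested against cDC2, 8 were higher and 1 lower (1.54, all genes 0.03). Tcf4 was at 2243 and 2199 CPM in R594C/R594C pDCs and 2406, 2170 and 1880 CPM in R594C/+ pDCs, against 38.8 and 54.2 CPM in R594C/R594C cDC1 and 96.4, 31.0 and 190 CPM in R594C/+ cDC1. The classes did not overlap (log2 difference 4.75, SE 0.44, adjusted p = 6.8e-04), and the difference from cDC2 was 3.56 (SE 0.16). Spib averaged 466 ± 147 CPM in pDCs and 3.21 ± 7.18 CPM in cDC1 (SD; log2 difference 6.91, SE 0.39). Its cDC1 level came from 4 UMIs in 1 replicate. Irf8 was 3635 ± 470 CPM in pDCs, 1936 ± 149 in cDC1 and 113 ± 67.3 in cDC2 (log2 differences 0.76 and 4.93).

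Runx2 averaged 1078 ± 55.9 CPM in pDCs and 43.0 ± 48.8 CPM in cDC1 (log2 difference 4.76, adjusted p = 0.00546 by edgeR). Bcl11a, a zinc finger factor upstream of Tcf4, averaged 644 CPM in pDCs and 112 in cDC1 (2.42), and Zeb2, a repressor, 623 CPM in pDCs and 72.8 in cDC1 (3.18, adjusted p = 0.0209). Irf7, the interferon-inducing factor, was 155 CPM in pDCs and 59.4 CPM in cDC1 (1.21). The factors of the conventional programme ran the other way. Id2, an inhibitor of E proteins such as E2-2, was at 9.97 and 19.9 CPM in R594C/R594C pDCs and 10.7, 25.1 and 13.9 CPM in R594C/+ pDCs, against 1108 and 921 CPM in R594C/R594C cDC1 and 895, 1163 and 1110 CPM in R594C/+ cDC1 (log2 difference -6.004, SE 0.23, adjusted p = 1.8e-17). Batf3, a factor that cDC1 need, averaged 8.17 CPM in pDCs and 288 in cDC1 (-5.22). Zbtb46, a factor of conventional dendritic cells, averaged 6.57 CPM in pDCs and 74.1 in cDC1 (-3.54). Mycl was 119.3 ± 46.5 CPM in pDCs and 129 ± 24.7 in cDC1, a log2 difference of -0.26 that did not pass (adjusted p = 0.435).

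The surface and secreted genes of the pDC list were higher against cDC1 in 19 of 20 tested and lower in 0 (list median 5.29), and against cDC2 in 18 of 19, with only Ccr2 lower (3.93). Genes without a UMI in the other class enter these medians with a fitted value, and setting them to their bounds left both medians as they were. Klk1 averaged 974 ± 309 CPM in pDCs and had 0 UMIs in cDC1 and in cDC2. Against a floor of 3 UMIs over the group this is at least 419.5-fold higher than in cDC1 and at least 246.5-fold higher than in cDC2. Cox6a2 averaged 1039 ± 369 CPM in pDCs with 0 UMIs in cDC1, at least 460.0-fold higher. Pacsin1, an endocytosis adaptor, averaged 283 ± 82.8 CPM with 0 UMIs in cDC1, at least 117.5-fold higher.

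Ly6d averaged 2986 ± 666 CPM in pDCs, 12.7 ± 5.71 in cDC1 and 19.2 ± 18.7 in cDC2 (log2 differences 7.70 and 7.28). Ccr9 averaged 1118 ± 432 CPM in pDCs, 30.8 ± 13.6 in cDC1 and 6.38 ± 6.94 in cDC2 (5.05 and 7.22). Both genes separated the classes without overlap. Ctsl, the lysosomal protease cathepsin L, averaged 1520 CPM in pDCs, 9.32 in cDC1 and 26.7 in cDC2 (7.07 and 5.68). Lair1, an inhibitory collagen receptor, averaged 773 CPM in pDCs and 14.7 in cDC1 (5.55). Atp1b1, a sodium pump subunit, averaged 789 CPM in pDCs and 4.27 in cDC1 (7.30), and Cd209d, a C-type lectin, 300 CPM in pDCs and 3.58 in cDC1 (6.21). By size of difference the list of the 8 highest against cDC1 was Cox6a2, Klk1, Gm21762, Pacsin1, Lrp8, Pltp, Klk1b27 and Hs3st1. Klk1 and Klk1b27 have near-identical relatives, between which 3′ reads may be split, so their separate levels are uncertain. The 8 lowest were Gpr141b, Cxcl9, Gatm, Tlr3, Cxcl16, Tspan33, Ppfibp2 and Adam8. Cxcl9, a chemokine induced by interferon gamma, had 1 UMI in pDCs and averaged 491 CPM in cDC1.

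The endosomal sensing genes divided by receptor. Tlr7 was at 110 and 130 CPM in R594C/R594C pDCs and 129, 110 and 69.6 CPM in R594C/+ pDCs, with 1 UMI in the cDC1 of these 5 replicates, a ratio of 145 (counting interval 25.3 to 5797). Over the cDC1 of all 10 replicates it had 4 UMIs. Tlr3, the double-stranded RNA receptor, had 0 UMIs in pDCs and averaged 135 ± 41.6 CPM in cDC1, at least 33.3-fold lower in pDCs. Tlr9 was read with 5 UMIs in these pDCs and 0 in cDC1, too few to test, and in 4.64% of all 151 pDCs. Unc93b1, the chaperone that brings the receptors to endosomes, averaged 626 CPM in pDCs, 396 in cDC1 and 264 in cDC2 (log2 differences 0.52 and 1.17). Pld4, an endosomal exonuclease, averaged 714 CPM in pDCs, 202 in cDC1 and 205 in cDC2 (1.69 and 1.69), and Slc15a4, a transporter needed for TLR7 and TLR9 signalling, 199 CPM in pDCs and 33.5 in cDC1 (2.46). In all, 7 of 14 tested sensing genes were higher and 2 lower than in cDC1 (list median 0.32), beside 23.3% and 22.9% of all genes. Against cDC2, 6 of 12 were higher and 1 lower (0.70), beside 21% and 20.1% of all genes. Without the filter on low counts these medians were -0.12 and -0.11.

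No interferon production was read. Of the 21 type I and type III interferon genes counted, the 151 pDCs held 1 UMI, of Ifnk, and all other cells held 15. A gene with 0 of 151 allows a share of pDCs with a UMI of up to 1.99%. The Ifna genes are near-identical and reads that match several of them may have been left out by the counting. The receptor genes Ifnar1 and Ifnar2 were both higher in pDCs than in both conventional classes, and Ifnar1 averaged 353 CPM in pDCs, 62.2 in cDC1 and 90.5 in cDC2 (log2 differences 2.31 and 1.83). Of 11 interferon-induced genes tested against cDC1, 7 were higher and 2 lower (list median 0.79), beside 23.3% and 22.9% of all genes. Ifi27l2a, a small mitochondrial protein induced by interferon, averaged 524 CPM in pDCs and 95.3 in cDC1 (2.42, adjusted p = 0.0129), whereas Isg15, a ubiquitin-like protein, averaged 26.6 CPM in pDCs and 95.2 in cDC2 (-1.78).

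Genes of MHC class II presentation were lower in pDCs than in conventional dendritic cells. Of 13 genes of MHC class II presentation tested against cDC1, 10 were lower and 1, the protease Ctss, was higher (list median -1.25), and against cDC2 all 12 tested were lower (-1.27). H2-Aa averaged 3692 ± 432 CPM in pDCs, 7904 ± 689 in cDC1 and 9077 ± 883 in cDC2 (log2 differences -1.25 and -1.37). Cd74, the invariant chain, averaged 8460 CPM in pDCs, 18620 in cDC1 and 18080 in cDC2 (-1.28 and -1.17). The costimulatory Cd86 averaged 7.38 CPM in pDCs, 175 in cDC1 and 310 in cDC2 (-4.35 and -4.99). Genes of MHC class I were divided, with H2-K1, H2-D1, H2-T23, H2-Q7, H2-Q6 and B2m higher than in cDC1 and Tap1, Tap2, Psmb8, Psmb9, Psme1 and Psme2 lower (list median 0.30, below 0 without the filter on low counts). Against cDC2, 6 of 14 class I genes were higher and 1, Tap1, lower (0.39), beside 21% and 20.1% of all genes. The H2 genes are similar in sequence, so their separate levels are uncertain. All 6 cell cycle genes tested were lower than in cDC1 and in cDC2 (list medians -2.47 and -2.01). These fits hold no WT replicate. The summed cell cycle list was at 718 and 778 CPM in R594C/R594C pDCs, 720 to 2063 in R594C/+ pDCs and 532 to 950 in WT pDCs. In cDC1 it was at 2897 to 3703 CPM in R594C/R594C, 966 to 5766 in R594C/+ and 749 to 1323 in WT, and in cDC2 at 1745 to 2385 CPM in R594C/R594C, 556 to 4869 in R594C/+ and 677 to 815 in WT. In WT the pDC sums thus overlapped those of both conventional classes. With WT brought in at a minimum of 5 cells, the call for Pcna, a DNA replication clamp, was lost against cDC2 (log2 difference -0.40, edgeR adjusted p = 0.301). Mki67, a marker of dividing cells, was read in 4.64% of pDCs and averaged 14.4 CPM in pDCs and 148 in cDC1 (-3.20).

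The IRE1 pathway was read through Xbp1 total transcript, since 3′ reads do not separate the spliced form. Xbp1 averaged 473 ± 49.0 CPM in pDCs, 143 ± 18.2 in cDC1 and 120 ± 18.0 in cDC2 (SD, n = 5; log2 differences 1.57, SE 0.17, adjusted p = 1.4e-08, and 1.88, SE 0.19, adjusted p = 6.5e-09, both edgeR). It was read in 90.7% of pDCs, 72.4% of the more deeply read cDC1 and 17.2% of follicular B cells. Ern1 was sparse at 37 UMIs in the 151 pDCs, with 31.7 ± 19.1 CPM in pDCs and 22.7 CPM in cDC1, and did not reach the test. Of 6 tested sensors and factors of the unfolded protein response, Xbp1 was the 1 higher than in cDC1, and Ppp1r15a and Hspa5 were lower.

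The ER folding genes were not higher together with Xbp1. Of 20 chaperones and disulfide isomerases tested, 12 were lower in pDCs than in cDC1 and 1, Txndc5, was higher (list median -0.60). Under library totals 8 were lower and 2 higher (-0.43). Hspa5, the chaperone BiP, averaged 687 ± 123 CPM in pDCs, 1267 ± 391 in cDC1 and 656 ± 123 in cDC2 (log2 differences -0.997, adjusted p = 2.6e-04, and -0.02, adjusted p = 0.944). Calr, the lectin chaperone calreticulin, averaged 449 CPM in pDCs, 1028 in cDC1 and 543 in cDC2 (-1.31 and -0.33, the second with an adjusted p of 0.0858), and Pdia6, a disulfide isomerase, 171 CPM in pDCs and 341 in cDC1 (-1.11). Against cDC2, 4 of 16 chaperones were higher and 1 lower (0.01), beside 21% of all genes higher and 20.1% lower. Of the genes of ER translocation and N-glycosylation, 6 of 26 were higher and 3 lower than in cDC1 (list median -0.02, and 0.14 under library totals), and 7 of 22 were higher and 0 lower than in cDC2 (0.39). ER-associated degradation had 3 of 11 genes higher and 0 lower than in cDC1 (0.27), and ER to Golgi transport 3 of 17 and 0 (0.12). Of all genes, 23.3% were higher and 22.9% lower than in cDC1. The shares of translocation, degradation and transport genes that were higher were near that 23.3%. Against cDC2, ER-associated degradation had 3 of 8 genes higher and 0 lower (0.49), and ER to Golgi transport 5 of 13 and 0 (0.51), beside 21% of all genes higher. The degradation median against cDC1 was -0.19 without the filter on low counts.

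Plasma cells, gated on Jchain with Sdc1 or Tnfrsf17, served as the secretory class with high Xbp1. In the 6 replicates with at least 10 cells of both classes (125 pDCs against 542 plasma cells), 1520 of 5457 genes were higher in pDCs (27.9%) and 1432 lower (26.2%) with TMM scaling. Over all 10 replicates, WT included, immunoglobulin constant genes made up a mean of 4258 CPM in pDCs and 601300 CPM in plasma cells. In the 6 replicates of the fit, scaling by library totals shifted the median of all genes by 1.49 on the log2 scale, with 4422 genes higher and 278 lower. CPM values and TMM differences therefore stand on different scales here. Xbp1 averaged 457 ± 58.9 CPM in pDCs and 1275 ± 192 CPM in plasma cells (SD, n = 6; TMM log2 difference -2.92, SE 0.11, edgeR adjusted p = 1.3e-25). Hspa5 averaged 723 ± 141 CPM in pDCs and 1427 ± 261 in plasma cells (-2.43), and Ssr4, a subunit of the translocon-associated complex, 371 ± 98.8 CPM in pDCs and 1706 ± 209 in plasma cells (-3.66). Derl3, of ER-associated degradation, had 2 UMIs in pDCs and 230 ± 48.6 CPM in plasma cells, and Fkbp11, a folding enzyme of secretory cells, had 1 UMI in pDCs and 136 ± 44.1 CPM in plasma cells.

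The ER lists were lower in pDCs than in plasma cells under TMM, and some changed sign with the scaling. Chaperones were lower in 25 of 26 tested (list median -2.41), and in 17 with 2 higher under library totals (-0.91). Translocation was lower in 30 of 30 (-1.93), and in 15 with 7 higher under library totals (-0.43). Degradation was lower in 19 of 20 (-1.84), and in 10 with 4 higher (-0.34). ER to Golgi transport was lower in 25 of 28 (-1.23), but under library totals 11 were higher and 5 lower (0.27). Unfolded protein response factors were lower in 9 of 11 with 1 higher (-0.86), and 5 higher with 3 lower under library totals (0.62). Ern1 was among those that turned, at 33.6 ± 17.6 CPM in pDCs and 22.7 ± 4.54 CPM in plasma cells, with a TMM log2 difference of -0.86 (edgeR adjusted p = 0.0137) and 0.62 under library totals (adjusted p = 0.0814). The pDC factors and surface genes were higher under both, in 9 of 9 and in 19 of 22 under TMM.

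**Figure D4:**
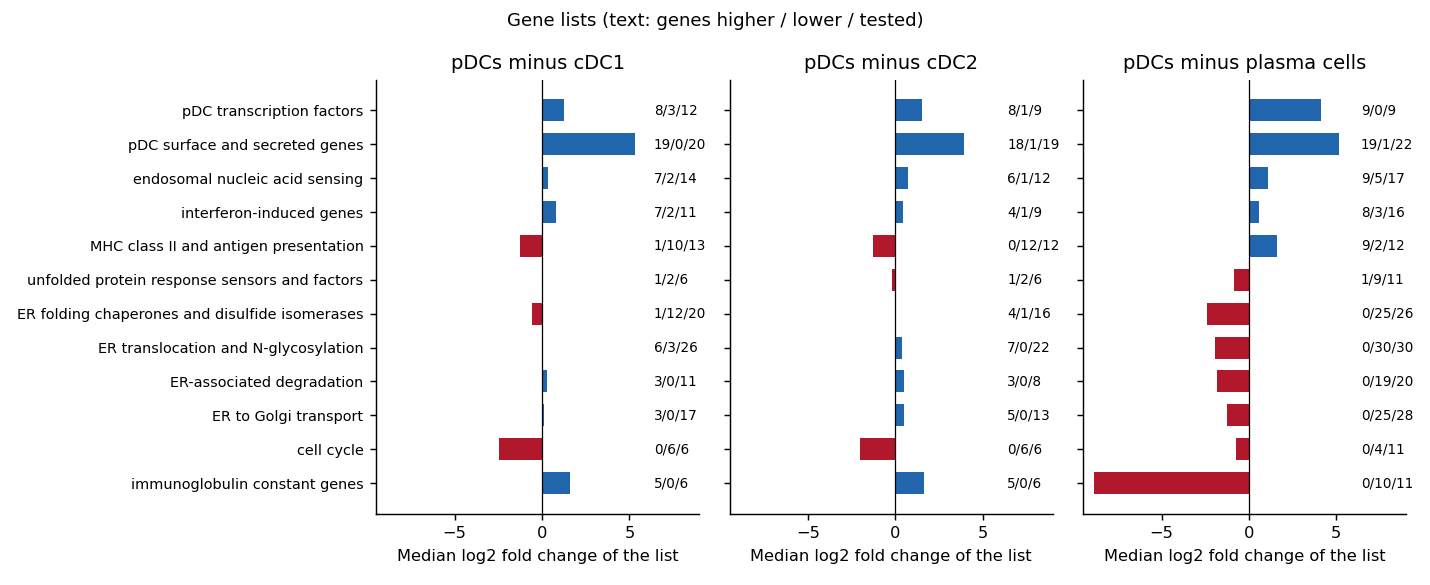
Median log2 difference of 12 gene lists for pDCs minus cDC1, cDC2 and plasma cells (TMM scaling), with the numbers of genes higher, lower and tested beside each bar. pDC genes are above 0 in all 3 comparisons and MHC class II genes are below 0 against both conventional classes. Against plasma cells the ER lists are below 0, where ER to Golgi transport and unfolded protein response factors turn above 0 under library totals.

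Between genotypes, 1 gene passed the test in pDCs. No WT replicate held 10 pDCs, so all 10 replicates with at least 5 pDCs entered the comparisons with WT, a limit set after the cell numbers were known. In R594C/R594C minus WT, edgeR called 1 of 2299 genes (0.0435%). In R594C/+ minus WT it called 0 of 2299 (0%), with 113 at an unadjusted p under 0.05 and 0 calls by DESeq2. In R594C/R594C minus R594C/+, over the 6 replicates with at least 10 pDCs, it called 0 of 2538 (0%), with 141 at an unadjusted p under 0.05 and 0 by DESeq2. The comparisons share samples and are not independent of each other.

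The gene called was mt-Rnr2, the mitochondrial large ribosomal RNA. It was at 4406 and 2882 CPM in R594C/R594C pDCs, 2191, 2220, 2568 and 2096 CPM in R594C/+ pDCs and 1680, 1729, 1596 and 1929 CPM in WT pDCs. Both R594C/R594C replicates were above every other replicate, and every R594C/+ replicate was above every WT one. The R594C/R594C pDCs exceeded WT by 1.10 on the log2 scale (SE 0.16, edgeR adjusted p = 8.0e-04), R594C/R594C minus R594C/+ was 0.67 (adjusted p = 0.0717) and R594C/+ minus WT was 0.43 (adjusted p = 0.828). The call was lost without the first R594C/R594C replicate. In cDC1 the same gene was at 2183 and 1400 CPM in R594C/R594C, 1413 to 4593 CPM in R594C/+ and 1104 to 2305 CPM in WT, with overlap. In plasma cells it was at 1021 and 1047 CPM in R594C/R594C, 718 to 886 in R594C/+ and 598 to 833 in WT. There too R594C/R594C lay above all others. In follicular B cells it was at 4135 and 4372 CPM in R594C/R594C, 3905 to 4211 in R594C/+ and 3817 to 3923 in WT, with R594C/R594C above WT. In cDC2 it was at 2298 and 2833 CPM in R594C/R594C, 1501 to 2412 in R594C/+ and 2064 to 3077 in WT, with overlap. All 7 mitochondrially encoded genes tested had a log2 difference above 0 for R594C/R594C minus WT, with a median of 0.52. Their sum with the rest of the list was 12510 and 13010 CPM in R594C/R594C pDCs, 8681 to 12950 in R594C/+ and 9002 to 10230 in WT.

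pDC identity genes did not pass in any genotype comparison. Tcf4 was at 2243 and 2199 CPM in R594C/R594C, 1880 to 2406 in R594C/+ and 1353 to 2367 in WT. Spib was at 448 and 459 CPM in R594C/R594C, 709, 391, 279 and 320 in R594C/+ and 240, 549, 452 and 365 in WT. Both overlapped between genotypes. Ccr9 was at 1734 and 1137 CPM in R594C/R594C, 1257, 882, 945 and 578 in R594C/+ and 502, 599, 798 and 760 in WT (R594C/R594C minus WT 1.14, SE 0.26, edgeR adjusted p = 0.157). Tlr7 was at 110 and 130 CPM in R594C/R594C, 69.6 to 129 in R594C/+ and 21.8 to 79.8 in WT (1.01, adjusted p = 0.872). For both genes the R594C/R594C replicates lay above all WT replicates, without passing the threshold. Tlr7 was sparse, with 102 UMIs over the 151 pDCs. The pDCs of a WT replicate held 37599 to 68432 RNA UMIs, so the WT levels of Tlr7 rest on few molecules.

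The total transcripts of Xbp1 and Ern1, the pathway the mutation concerns, overlapped between genotypes. Xbp1 was at 558 and 464 CPM in R594C/R594C pDCs, 440, 441, 376 and 460 CPM in R594C/+ and 284, 432, 559 and 672 CPM in WT. The log2 difference of R594C/R594C from WT was 0.08 (SE 0.29, edgeR adjusted p = 0.982). Ern1 was at 19.9 and 59.8 CPM in R594C/R594C, 15.0 to 43.0 in R594C/+ and 21.8 to 58.5 in WT, too sparse to test. The R594C change itself is a coding change outside what 3′ counts can check.

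No gene of ER import and folding was called between genotypes. Sec61b, Hspa5 and Herpud1 are given as abundant members of their lists, and Fkbp2, Pdia6 and Ssr1 were chosen after their values were seen. Sec61b, a subunit of the protein-conducting channel of the ER, was at 289 and 384 CPM in R594C/R594C, 859, 762, 602 and 668 CPM in R594C/+ and 1025, 532, 638 and 979 CPM in WT. Both R594C/R594C replicates were below all others. The log2 difference was -1.08 from R594C/+ (SE 0.22, edgeR adjusted p = 0.0717) and -1.18 from WT (SE 0.28, adjusted p = 0.157). In cDC1 Sec61b was likewise lowest in R594C/R594C, at 471.5 and 390.5 CPM against 544 to 865 in R594C/+ and 545 to 797 in WT. In cDC2 it was at 371 and 336 CPM, below WT (463 to 553) and overlapping R594C/+ (347 to 457). In plasma cells and follicular B cells its genotypes overlapped. Fkbp2, an ER proline isomerase, was at 39.9 and 54.8 CPM in R594C/R594C, 130 to 140 in R594C/+ and 106.4 to 218 in WT, from 15, 71 and 32 UMIs (R594C/R594C minus WT -1.56, adjusted p = 0.417). Pdia6 was at 150 and 89.7 CPM in R594C/R594C, 146 to 256 in R594C/+ and 200 to 349 in WT (-1.25, adjusted p = 0.417). Ssr1, of the translocon-associated complex, was at 120 and 130 CPM in R594C/R594C, 140 to 215 in R594C/+ and 200 to 327 in WT (-0.93, adjusted p = 0.696). Hspa5 was at 528 and 638 CPM in R594C/R594C, 672 to 902 in R594C/+ and 638 to 865 in WT (-0.27), and Herpud1, of ER-associated degradation, had a difference of 0.31. The other abundant members of the folding and translocation lists differed in R594C/R594C from WT by -0.33 (Hsp90b1), -0.30 (Calr), -0.43 (Erp29), -0.41 (Sec11c), -0.85 (Ssr4) and -0.91 (Spcs2), with edgeR adjusted p of 0.691 for Ssr4 and Spcs2 and 0.978 for the other 4.

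Over the lists, the log2 differences of R594C/R594C minus WT were below 0 for 15 of 17 chaperones (median -0.56), 16 of 22 genes of translocation and N-glycosylation (-0.49), 12 of 15 of ER to Golgi transport (-0.37), 7 of 8 of ER-associated degradation (-0.29) and 4 of 7 of the unfolded protein response (-0.17). Over all 2299 genes tested, 1173 were below 0 (median -0.01). For R594C/R594C minus R594C/+, 14 of 17 chaperones (-0.44), 19 of 25 translocation genes (-0.25) and 13 of 16 transport genes (-0.38) were below 0, against 1265 of 2538 genes (0.00). Both comparisons hold the same 2 R594C/R594C replicates. For R594C/+ minus WT the medians were -0.03, -0.13 and 0.05. No gene of these lists passed the threshold, and the genes of a list vary together, so the counts describe these replicates.

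Summed per replicate, the chaperones stood at 4027 and 3909 CPM in R594C/R594C pDCs, 5446, 5724, 6049 and 4972 CPM in R594C/+ pDCs and 6108, 5054, 4841 and 6327 CPM in WT pDCs. The translocation genes stood at 4176 and 4372 CPM in R594C/R594C, 5919, 5734, 5114 and 4896 CPM in R594C/+ and 7003, 5005, 4841 and 7131 CPM in WT. ER to Golgi transport stood at 2273 and 2592 CPM in R594C/R594C, 3244, 3133, 3062 and 2967 CPM in R594C/+ and 3229, 3076, 3325 and 3171 CPM in WT. In each of the 3 lists both R594C/R594C replicates lay below all 8 others. The sums of ER-associated degradation (1954 and 1979 CPM in R594C/R594C, 2191 to 2331 in R594C/+, 1876 to 2353 in WT) and of the unfolded protein response (1764 and 1999 CPM in R594C/R594C, 1754 to 2423 in R594C/+, 1876 to 2250 in WT) overlapped.

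The other classes of the same captures gave a mixed picture. In plasma cells the translocation sum was 7478 and 8619 CPM in R594C/R594C, 8374 to 8933 in R594C/+ and 8940 to 10710 in WT, where R594C/R594C overlapped R594C/+ and not WT. In cDC1 it was 3697 and 3963 CPM in R594C/R594C, 4152 to 5632 in R594C/+ and 4303 to 5452 in WT, without overlap of R594C/R594C with the others. The transport sum of cDC1, 1828 and 1950 CPM in R594C/R594C, 2003 to 2682 in R594C/+ and 2351 to 2615 in WT, was ordered in the same way. The chaperone sum of cDC1, 6831 and 7639 CPM in R594C/R594C, 5765 to 9266 in R594C/+ and 5966 to 7844 in WT, did overlap. Follicular B cells had chaperone sums of 3440 and 3605 CPM in R594C/R594C, 3919 to 4295 in R594C/+ and 3587 to 4076 in WT, which overlapped, and translocation sums of 3456 and 3544 CPM in R594C/R594C, 3560 to 3701 in R594C/+ and 3593 to 3868 in WT, where R594C/R594C lay below the others. In cDC2 the translocation sum was 3018 and 3146 CPM in R594C/R594C, 2968 to 3638 in R594C/+ and 3408 to 3729 in WT. The transport sum of cDC2 was 1776 and 1833 CPM in R594C/R594C, 1719 to 2158 in R594C/+ and 1973 to 2401 in WT. Both cDC2 sums of R594C/R594C lay below WT and overlapped R594C/+. Whether the size of the difference in pDCs departs from that in other classes was not tested. Erythroid transcripts, which pDCs do not make, moved with capture: their sum was 69.8 and 84.8 CPM in R594C/R594C pDCs, 105 to 172 in R594C/+ and 0 to 29.2 in WT. Neutrophil transcripts were at 19.9 and 64.8 CPM in R594C/R594C, 53.7 to 76.6 in R594C/+ and 0 in all 4 WT replicates, with Ltf at 0 throughout. The median pDC held 6772 UMIs in R594C/R594C, 6587.5 in R594C/+ and 8188.5 in WT. The part of these in the results was not tested.

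**Figure D5:**
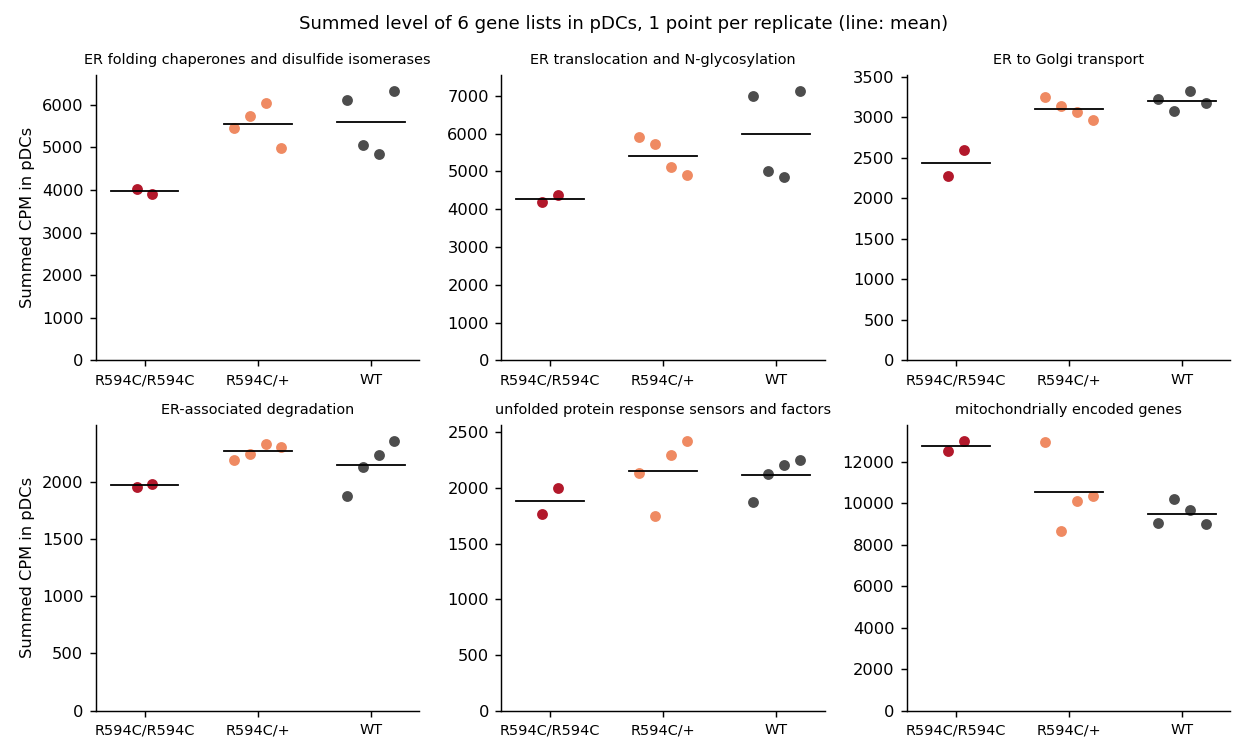
Summed CPM of 6 gene lists in pDCs by genotype, with 1 point per replicate and a line at the mean. For chaperones, translocation and ER to Golgi transport both R594C/R594C replicates (3909 and 4027 CPM for chaperones) lie below all R594C/+ and WT replicates, and for mitochondrially encoded genes they lie above all WT replicates.

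No tag was called between genotypes on pDCs. By edgeR, 0 of 52 tags passed for R594C/R594C minus WT (0%, with 4 at an unadjusted p under 0.05 and 0 by DESeq2) and 0 of 52 for R594C/+ minus WT (0%, with 3 and 0). For R594C/R594C minus R594C/+ it was 0 of 58 (0%, with 5 at an unadjusted p under 0.05), while DESeq2 called CD8a. CD8a stood at 4.6 and 2.67 UMIs per pDC in R594C/R594C, 9.43, 7.42, 5.54 and 8.20 in R594C/+ and 2.17, 2.57, 3.00 and 10.0 in WT. R594C/R594C lay below R594C/+ without overlap, by -1.12 on the log2 scale (edgeR adjusted p = 0.421, DESeq2 adjusted p = 0.0105). Ly6A/Ly6E was at 24.5 and 39.9 UMIs per pDC in R594C/R594C, 39.0, 38.9, 40.2 and 48.7 in R594C/+ and 47.3, 54.4, 37.4 and 63.6 in WT (R594C/R594C minus WT -0.70, edgeR adjusted p = 0.466), which overlapped.

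The WT values rest on 26 pDCs, and WT replicate 1, with 6 of them, stood apart. Its immediate early genes summed to 6021 CPM, against 15290 to 27900 in the other 9 replicates, and its genes of transitional dendritic cells, a class that shares pDC and cDC2 genes, to 4145 CPM against 1038 to 1945. The medians of the chaperone, translocation and transport lists for R594C/R594C minus WT kept their sign in all 19 alternatives run, replicates left out included, between -0.61 and -0.31, -0.58 and -0.21, and -0.43 and -0.18. The median of ER-associated degradation ranged between -0.45 and 0.05 and changed sign in 1 of them, without the filter on low counts. That of the unfolded protein response ranged between -0.37 and 0.11 and changed sign in 3, without that filter, with the replicate block and without R594C/R594C replicate 1. A kept sign was not particular to ER lists. Medians of pDC factors, pDC surface genes, interferon-induced genes (0.361 to 0.835), MHC class I (-0.248 to -0.132) and mitochondrially encoded genes kept theirs in all 19. Those of endosomal sensing and MHC class II changed in 2 and 5. The alternatives share replicates and are not independent.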

How the data were processed

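The authors deposited raw UMI counts per gene, antibody tag and hashtag for each barcode, with no normalization. Per the file headers the matrices came from Cell Ranger 5.0.0. The submitters' processing notes also name STAR, Seurat 3.1.4 and mm10, with no role given. The files hold 55385 genes, 191 antibodies and 24 hashtags, and no barcode had fewer than 500 RNA UMIs. The rule of the droplet filter is not given in the sources used here.

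A barcode was kept with 200 or more genes and no more than 10% of its UMIs from mitochondrial genes. The highest of hashtags 0301 to 0304 needed at least 20 UMIs and 3 times the next. cDC1 had 2 or more Xcr1 and Clec9a UMIs. cDC2 had 2 or more Clec10a, Cd209a and Clec4a4 UMIs, 10 or more of H2-Ab1 and none of Xcr1 or Clec9a. Plasma cells had 20 or more Jchain UMIs and at least 1 of Sdc1 or Tnfrsf17. All of these classes and the follicular B cells had at most 1 Siglech UMI and no Cd3 UMI. cDC1 and cDC2 also had at most 1 Cd79a UMI. Doublets were scored with Scrublet in scanpy 1.11.5 at an expected rate of 0.1 and kept. UMIs of a class were added up within each replicate that held 10 or more of its cells. No WT replicate reached 10 pDCs, so the planned comparisons with WT could not be fitted, and a minimum of 5, chosen after seeing the data, was used there.

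Sums were tested with edgeR 4.0.16 (robust quasi-likelihood test, TMM scaling, filterByExpr, Benjamini-Hochberg adjustment at 0.05), with the replicate as a block between classes and no block between genotypes. Tags under a mean of 10 UMIs in a replicate's sum were left out. DESeq2 1.42.0, other gates and filters, library totals and leaving out each replicate were alternatives. Shares were tested with two-sided exact permutation tests, and the scripts were tested on simulated data. Named genes were Ern1, Xbp1, the pDC markers, the 4 most abundant tested genes of each of the 30 lists, and the 8 highest and 8 lowest differences between classes at 50 CPM or more, of which the text gives a part. The members and the lists were chosen with earlier results of these data known. No principal component or gene set test was run. Software was R 4.3.3 with limma 3.58.1, and Python 3.11.15 with scipy 1.17.1, numpy 2.4.6, matplotlib 3.10.9 and pandas 2.3.3. Promoter sequences are RefSeq's for GRCm38.p6, the assembly that mm10 names.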

Additional observations from a re-analysis of the deposited data

Results flagged for a closer look

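The CD8a tag on WT pDCs had 1 replicate far from the others. WT replicate 4 had 10.0 CD8a UMIs per pDC over 8 cells, whereas the other 3 WT replicates had 2.17, 2.57 and 3.00. The gap to the nearest of them was 0.894 of the whole range, above Dixon's 95% critical value for 4 samples. In all, 50 groups of 4 values were examined in this way, and chance alone gives about 1 in 20.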

How the results depend on the processing

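For single genes and tags between genotypes, 5248 values of 296 results were recomputed: 4794 kept their direction and their side of the threshold, and 444 changed sign where neither value passed the threshold. The list medians of R594C/+ minus WT changed sign in 9 of 19 alternatives for chaperones, 1 for translocation, 2 for transport, 11 for degradation and 5 for the unfolded protein response. R594C/+ minus WT in the share ranged from 0.194 to 0.438 points when replicates were left out, R594C/R594C minus WT from 0.00865 to 0.178, R594C/R594C minus R594C/+ from -0.345 to -0.101 and the correlation with alleles from 0.200 to 0.475. R594C/+ minus WT had an exact permutation p of 0.0571 with a gate of 1 UMI each, cells thinned to 1500 UMIs, the denominator of cells with at most 1 Cd79a UMI (0.835 points), no limit on Cd79a and Cd3 (0.384 points) and without each WT replicate. For R594C/+ minus WT, 1 gene was called with no filter on low counts, 1 with a gate of 3 UMIs each, 2 with no Cd79a UMI and 0 to 1 when replicates were left out. For R594C/R594C minus WT the count was 2 with no filter and 0 to 1 when replicates were left out. For R594C/R594C minus R594C/+ it was 2 with no filter, 3 with a gate of 3 UMIs (Rpl10, Sec61b and mt-Rnr2) and 0 to 2 when replicates were left out. Tags called were 0 to 1 for R594C/+ minus WT, 0 to 2 for R594C/R594C minus WT and 0 to 2 for R594C/R594C minus R594C/+ when replicates were left out, and 1 for the last by DESeq2. Fits that left 1 R594C/R594C sample assume that it varies like the other groups. Hashtag numbers did not pair the samples: 8 pairs with the same number had correlations of -0.0481 to 0.115, 1 of them over 0.1, other pairs -0.115 to 0.118, and 4 of 10 samples correlated best with their own number. With the replicate block, 1 gene was called for R594C/+ minus WT, 2 for R594C/R594C minus WT and 7 for R594C/R594C minus R594C/+. Between classes, no filter gave 2447 calls against cDC1 and 1865 against cDC2, since more genes were tested, and library totals gave 4700 against plasma cells. In 4187 values of 336 results, 25 reversed, all of them pDCs minus plasma cells under library totals, where the median of all genes moved by 1.49. The log2 differences there were 0.62 for Ern1, 0.86 for Cebpb, 0.93 for Ppp1r15a, 1.00 for Ighd, 1.29 for Erp29, 0.53 for Tmed2, 0.94 for Arf1, 0.39 for Vcp, 0.18 for B2m, 0.86 for H2-K1, 1.35 for H2-D1, 1.28 for Cd74 and 1.46 for Tubb5. They were 0.78 for Hmgb2, 1.24 for Ctss, 0.60 for Hbb-bs, 0.31 for Hba-a1, 0.82 for Fos, 0.26 for Jun, 0.64 for Jund, 0.83 for mt-Cytb, 1.34 for mt-Nd1, 1.15 for mt-Nd2, 1.12 for Crip1 and 0.79 for Atf4. The cause of the other changes was not tested. The WT comparisons are limited by 5 to 8 pDCs and 37599 to 68432 RNA UMIs per replicate, and those with R594C/R594C by its 2 replicates.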

Other observations

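pDCs carried Iglc3 and some other transcripts of the B lineage above the level of conventional dendritic cells. Iglc3, an immunoglobulin lambda constant gene, was at 857 and 733 CPM in R594C/R594C pDCs, 935, 957, 612 and 850 CPM in R594C/+ pDCs and 414, 1014, 984 and 1081 CPM in WT pDCs. In cDC1 it was at 3.23 and 2.85 CPM in R594C/R594C, 0 to 17.7 in R594C/+ and 7.14 to 27.2 in WT, and follicular B cells, whose receptors it forms part of, held 543 to 735 CPM. In the 5 replicates with both classes the means were 866 ± 88.2 CPM in pDCs and 7.16 ± 7.42 CPM in cDC1 (SD; log2 difference 6.71, SE 0.29, edgeR adjusted p = 2.3e-16), and the log2 difference from cDC2 was 7.09. The lambda constant genes are near-identical, so the level of Iglc3 apart from its relatives is uncertain. Igkc, the kappa constant gene, averaged 1591 ± 216 CPM in pDCs and 722 ± 460 CPM in cDC1 (1.21, adjusted p = 0.0282), and the log2 difference from cDC2 was 1.12. WT, which is not in these fits, held a cDC2 replicate with 41210 CPM of Igkc, and with WT brought in at a minimum of 5 cells the cDC2 call was lost (0.56, edgeR adjusted p = 0.491), while that of Iglc3 was kept (6.15). Igkc was read in 99.3% of pDCs, 96.7% of cDC1 and 99.8% of follicular B cells. The median cell of these classes held 6742, 12524 and 2884 RNA UMIs. Whether pDCs themselves make Igkc was not tested. The summed B cell markers in pDCs, which include Cd79a, limited by the gate, were 21.8 to 146 CPM.

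Blnk, an adaptor of B cell receptor signalling, averaged 297 ± 45.4 CPM in pDCs with 1 UMI in cDC1, a ratio of 385 (counting interval 68.3 to 15270), and 297 against 9.94 CPM in cDC2. Dntt, the DNA polymerase that adds bases at antigen receptor joins, was read in 41.1% of pDCs and 0.0431% of follicular B cells, and averaged 130 CPM in pDCs with 0 UMIs in cDC1, at least 50.7-fold higher. Rag1, the recombinase of the same process, had 0 UMIs in pDCs. Of 9 B lineage genes tested against cDC1, 7 were higher and 0 lower (list median 1.86, also with Dntt at its bound), against 23.3% of all genes higher. Of 8 tested against cDC2, 5 were higher and 0 lower (1.08), against 21% of all genes. These genes were chosen for being known in pDCs, and pDCs were set against them after earlier results were known, so the counts are a description.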
